A study of Mus musculus with 180 samples.

Results

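The genes described here encode the membrane-fusion machinery of transport and synaptic vesicles: the syntaxins, the VAMP (synaptobrevin) and SNAP proteins, the synaptotagmins, the SV2 glycoproteins, the syntaxin-binding proteins and the complexins. They were picked by gene symbol, as every entry beginning with Syt, Stx, Vamp, Snap, Sv2, Stxbp or Cplx and its number or letter, without antisense and pseudogene symbols. This gave 59 genes of 54429 in the count table. By the known topology of the proteins, 21 of the 59 are tail-anchored, 15 carry an N-terminal signal anchor, 3 span the membrane many times and 20 have no transmembrane span.

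The 180 libraries came from the hippocampi of 30 male mice, 6 from each animal. CFC SD (7 mice), CFC Sleep (8), NoCFC SD (7) and NoCFC Sleep (8) were the groups, where CFC is contextual fear conditioning and SD is sleep deprivation. All of the mice came from a cross of B6.Cg mice carrying the transgene Tg(Camk2a-cre)T29-1Stl with B6N.129-Rpl22tm1.1Psam/J mice, so that the control mice too carried Cre under the Camk2a promoter and the allele for HA-tagged Rpl22, a ribosomal protein. The labels give neither an age nor the length of the sleep deprivation, and they give the tissue only as brain and the cell type as neuron. Each homogenate was centrifuged, the pellet was taken as the membrane fraction and the supernatant as the cytosolic fraction, and each was divided into an anti-HA capture of ribosomes from Camk2a-cre neurons (called Camk2a below), a capture with an antibody to phosphorylated ribosomal protein S6 (pS6, which marks recently active neurons) and an uncaptured Input. Captured libraries report RNA that came down with ribosomes, and pellets can hold cell debris and organelles beside the endoplasmic reticulum.

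SNARE proteins of the vesicle and of the target membrane zip into a helical bundle that draws the membranes together. Synaptotagmins sense calcium, complexins and syntaxin-binding proteins set when the bundle forms, and at hippocampal synapses this machinery releases transmitter. The proteins reach their membranes by different routes: a signal anchor near the N terminus leaves the ribosome early and is bound by the signal recognition particle, which takes the translating ribosome to the endoplasmic reticulum. The anchor of a tail-anchored protein lies so near the C terminus that it is still inside the ribosome when translation ends, and the protein is inserted after release. Multi-pass proteins enter during translation, and proteins without a span are made on free ribosomes.

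The coding sequences of Syt1 and Syt2, the fast calcium sensors of synaptic vesicles, and of Vamp2, the vesicle SNARE they work with, show where the anchor lies in each class. Capitals mark the codons of the most hydrophobic stretch of 19 residues (Kyte-Doolittle scale). For Syt1 and Syt2 15 coding bases are shown on each side, and for Vamp2 the sequence runs from that stretch to the stop codon. All are written 5′ to 3′ on the strand of the gene, from GENCODE vM21 on GRCm38, where Syt1 lies at chr10:108497650-109010982 (minus strand), Syt2 at chr1:134646677-134762593 (plus) and Vamp2 at chr11:69088490-69092384 (plus).
Syt1: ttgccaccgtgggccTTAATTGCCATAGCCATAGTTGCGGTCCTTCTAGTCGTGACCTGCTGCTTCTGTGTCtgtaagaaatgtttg
Syt2: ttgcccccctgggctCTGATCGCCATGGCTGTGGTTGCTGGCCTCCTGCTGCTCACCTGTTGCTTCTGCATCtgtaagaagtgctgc
Vamp2: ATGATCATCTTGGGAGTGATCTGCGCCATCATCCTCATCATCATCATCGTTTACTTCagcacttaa

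The hydrophobic stretch covered residues 60 to 78 of 421 in Syt1 and 68 to 86 of 422 in Syt2. In Vamp2 it covered residues 96 to 114 of 116. Over the tail-anchored genes a median of 5 residues followed the stretch (range 0 to 55), and its mean hydropathy had a median of 3.35. Over the signal-anchored genes the stretch began at a median of residue 46 and was followed by a median of 392 residues (range 117 to 512), with a median hydropathy of 2.64. A hydropathy threshold of 1.6, with at most 40 residues after the stretch for a tail anchor, gave the same class as the known topology for 54 of the 59 genes. Those that differed were Stx17, Snap91, Syt16 and Stxbp5l, and Vamp7 could not be placed because its symbol had no unique position in the annotation.

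Libraries held 11.98 to 26.95 M (mega) counts. The capture check behaved as follows: the Camk2a gene differed between Camk2a capture and Input by 0.74 ± 0.04 (log2 ± SE) in cytosolic and 0.75 ± 0.07 in membrane libraries, and Rpl22 by -0.36 ± 0.03 and -0.10. In cytosolic Camk2a capture against Input, markers of inhibitory neurons were lower in 9 of 9 genes (median log2 difference -3.51) and astrocyte, oligodendrocyte and microglia markers in 8 of 8 each, while 1 of 8 excitatory markers passed as higher. Rps6 differed by 0.27 ± 0.04 between pS6 capture and Input in the cytosolic fraction. Libraries of mouse 22 (CFC SD) had the lowest mean correlation with the others in 3 of the 6 library types (0.978 in Camk2a membrane, where the median was 0.982). Mouse numbers form 3 runs in which 1 to 11 are all NoCFC and 12 to 22 all CFC, and only mice 23 to 30 hold both.

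Transcripts of the vesicle fusion genes split between the membrane and cytosolic fractions by how the protein is anchored. Most synaptotagmins with a signal anchor were at least 2-fold higher in the membrane fraction, as were Sv2a and Sv2c. The tail-anchored SNAREs Vamp1, Vamp2, Vamp7, Stx1a and Stx7 and the lipid-anchored Snap25 were lower in the membrane fraction of Camk2a libraries. In Camk2a libraries 55 of the 59 genes passed the filter on low counts, and 15 were called higher and 14 lower in the membrane fraction (edgeR quasi-likelihood F-test, Benjamini-Hochberg adjusted p under 0.05 and a fold of at least 2). With adjusted p alone 26 were higher and 27 lower. Of all genes tested, 27.9% were called higher and 10.2% lower by the same rule. In pS6 libraries 15 of 55 were higher and 11 lower (25.3% and 9.96% of all genes), and in Input libraries 13 of 54 were higher and 12 lower (22% and 8.97% of all genes). The share of these genes called lower was thus above that of all genes in each population, and the share called higher was near that of all genes. By class the counts differed. In Camk2a libraries 2 of 21 tail-anchored genes were higher and 8 lower (median log2 difference -0.80), and 11 of 14 tested signal-anchored genes were higher and 0 lower (median 1.66). Among these are Vamp5 and Syt15, which passed the filter through the membrane libraries where they are high, and without them 1 of 20 and 10 of 13 were higher. Among multi-pass genes 2 of 3 were higher (median 1.32), among genes without a span 6 of 17 were lower and 0 higher (median -0.41), and the median of all genes was -0.07. Tail- and signal-anchored medians were -0.70 and 1.46 in pS6 libraries and -0.85 and 1.31 in Input libraries. Filtering removed Syt8, Cplx4, Stx11 and Stx19 in Camk2a libraries, and Syt8 was at 0 counts in 28 to 30 of the 30 libraries of each type, which places it under the counting limit rather than at a level. Fractions of tissue are bulk samples, in which fewer cells of a type and less RNA per cell cannot be told apart.

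**Figure D1:**
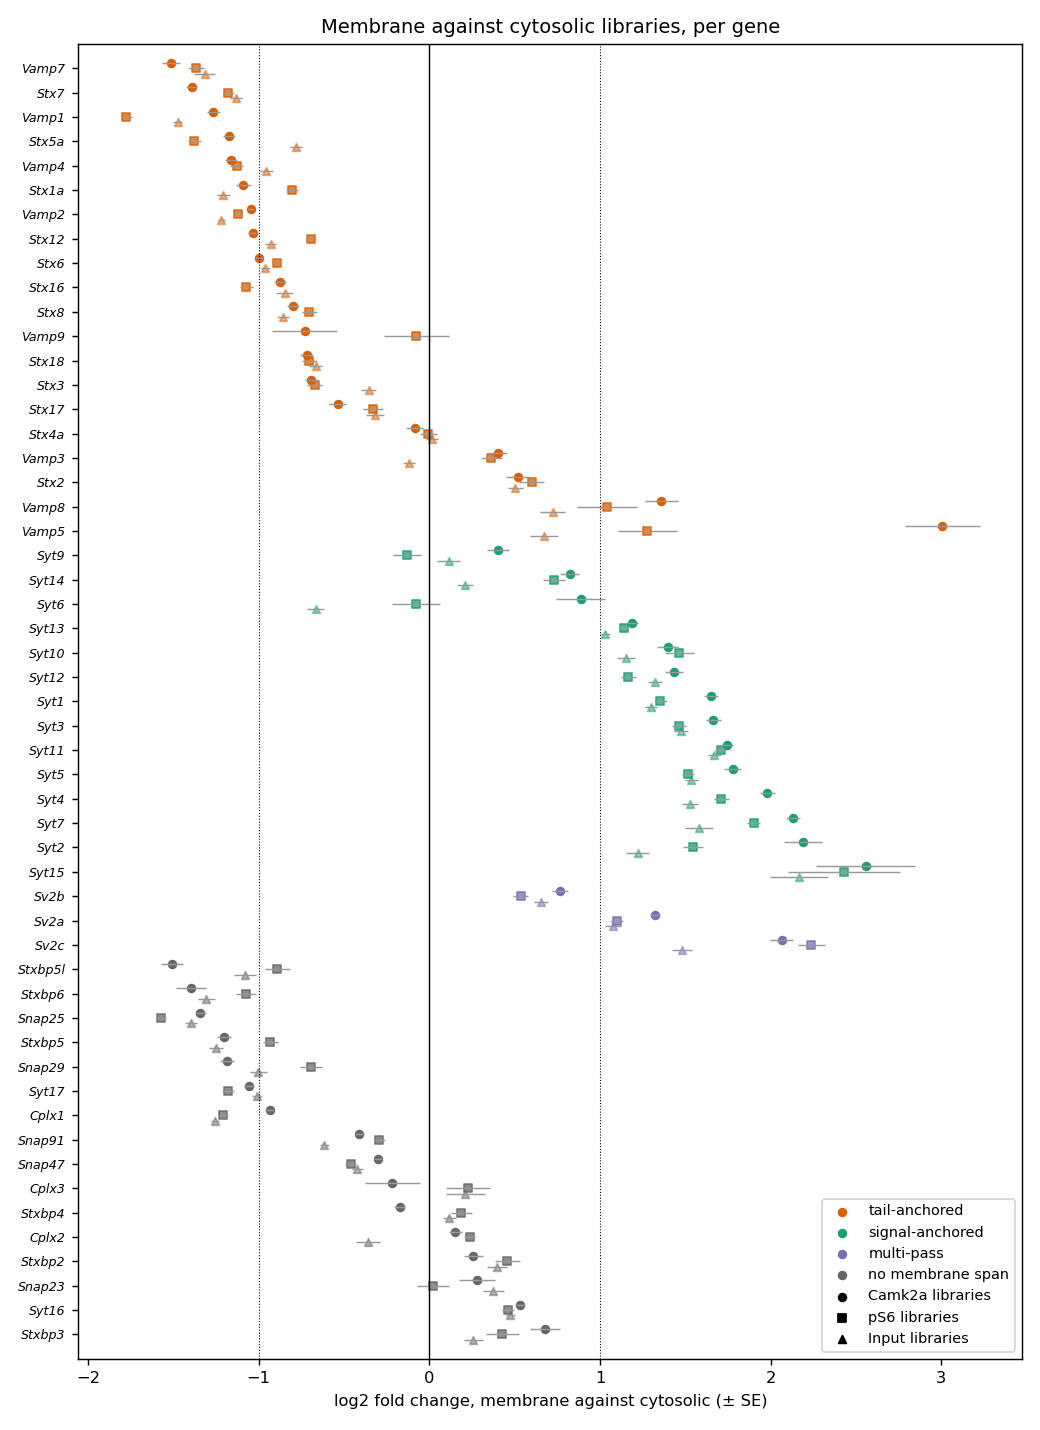
Log2 difference (membrane against cytosolic, x axis) with its standard error for the genes named on the y axis, grouped by anchor class. Circles are Camk2a, squares pS6 and triangles Input libraries, and dotted lines mark a fold of 2. Tail-anchored SNAREs lie mostly left of 0 (median -0.80 in Camk2a), with Vamp5 and Vamp8 on the right, and signal-anchored synaptotagmins mostly right of 1 (median 1.66).

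Among calcium sensors, Syt1 had 2740, 3585 and 4428 CPM (counts per mega-count of the scaled library; lowest, median and highest of 30 libraries) in the Camk2a membrane fraction and 1005, 1234 and 1480 CPM in the cytosolic fraction. Every membrane library was above every cytosolic one, and the log2 difference was 1.65 ± 0.04 (SE; adjusted p = 2.17e-45, edgeR). The difference was 1.35 ± 0.04 in pS6 and 1.299 ± 0.036 in Input libraries. Syt2, which serves the fastest synapses, had 19.7, 34.1 and 54.1 CPM in membrane and 3.32, 7.34 and 13.9 CPM in cytosolic Camk2a libraries. The fractions did not overlap, and the log2 difference was 2.19 ± 0.11 in Camk2a, 1.55 in pS6 and 1.22 in Input libraries. Syt7, a slow, high-affinity sensor, had 304, 399 and 506 CPM in membrane and 82.2, 101 and 123 CPM in cytosolic Camk2a libraries, and differed by 2.13, 1.901 and 1.58 in Camk2a, pS6 and Input libraries.

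Other signal-anchored members were spread over a wide range. Syt11 and Syt4, related proteins that trigger no fast release, differed by 1.74 and 1.98 in Camk2a libraries, and Syt3 and Syt5 by 1.66 and 1.78. Syt11 had 1532, 1851 and 2243 CPM in the membrane and 485, 594 and 677 CPM in the cytosolic fraction, so it too was separated without overlap. At the low end among those with an average level of at least 3 on the log2 CPM scale were Syt10 (1.40), Syt13 (1.19 ± 0.04) and Syt14 (0.82), and Syt14 overlapped between fractions. The most hydrophobic stretch of Syt13 by the scale used lay at residues 291 to 309 of 426, with a mean hydropathy of 1.87. As 2 stretches of this protein passed the threshold, the one at 291 to 309 need not be its anchor. Syt13 is a synaptotagmin that does not bind calcium. Syt9, a calcium sensor of some fast synapses, was the least separated in Camk2a and Input libraries, at 0.40 ± 0.07 in Camk2a, -0.13 ± 0.08 in pS6 (adjusted p = 0.134, edgeR) and 0.11 in Input libraries. Syt6 had opposite signs in the populations, with 0.89 ± 0.14 in Camk2a, -0.08 in pS6 and -0.67 ± 0.05 in Input libraries, and it is a low gene (medians 2.29 CPM in membrane and 1.40 CPM in cytosolic Camk2a libraries). Syt15 had 0, 0.443 and 1.02 CPM in membrane and 0, 0.0539 and 0.184 CPM in cytosolic Camk2a libraries, so its call of 2.56 ± 0.29 follows in part from the filter. Of the pair without a span, Syt17 was called lower in the membrane fraction (-1.05 ± 0.03 in Camk2a), and Syt16 differed by 0.53 without reaching a fold of 2.

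The SV2 proteins, glycosylated, transporter-like proteins of the vesicle membrane, lay with the synaptotagmins. Sv2a had 639, 780 and 953 CPM in membrane and 293, 340 and 381 CPM in cytosolic Camk2a libraries. Its log2 difference was 1.32 ± 0.03, and 1.10 and 1.08 in pS6 and Input libraries. Sv2c, at a median of 43.1 CPM in membrane against 11.5 CPM in cytosolic Camk2a libraries, differed by 2.06. Sv2b had 463, 602 and 764 CPM in membrane and 274, 377 and 475 CPM in cytosolic Camk2a libraries, which overlapped in range although each of the 30 mice had the higher value in its membrane library. Its difference of 0.76 did not reach a fold of 2.

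Vesicle SNAREs ran the other way. Vamp2, the main synaptobrevin of forebrain vesicles, had 1141, 1357 and 1555 CPM in membrane and 2825, 2956 and 3196 CPM in cytosolic Camk2a libraries. No membrane library reached the cytosolic range, and the log2 difference was -1.05 ± 0.02 (adjusted p = 1.32e-50, edgeR). It was -1.12 ± 0.02 in pS6 and -1.22 ± 0.02 in Input libraries. Vamp1, its close relative, differed by -1.26, -1.77 and -1.47 in Camk2a, pS6 and Input libraries, the lowest tail-anchored value in pS6 and Input. Vamp7, which carries an N-terminal longin domain and acts in late endosomal fusion, was the lowest in Camk2a libraries (-1.51, 33.4 CPM in membrane against 103 CPM in cytosolic libraries at the median). Its pseudogene Vamp7-ps may share reads with it. Vamp4, of the trans-Golgi network, differed by -1.16 in Camk2a libraries.

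Some VAMP proteins differed from this pattern. Vamp3 (cellubrevin), found in many cell types, differed by 0.40 in Camk2a and -0.12 in Input libraries. Vamp8 (endobrevin) had 2.09, 3.69 and 6.63 CPM in membrane and 0.834, 1.69 and 2.42 CPM in cytosolic Camk2a libraries, a difference of 1.36 ± 0.10 with overlapping ranges. Vamp5, a muscle VAMP, had 0.135, 0.789 and 1.497 CPM in membrane and 0, 0.0867 and 0.268 CPM in cytosolic Camk2a libraries. It passed the low-count filter through the membrane libraries alone, so its call of 3.005 ± 0.219 follows in part from how it was kept. Vamp9, also low at medians of 0.237 CPM in membrane and 0.485 CPM in cytosolic Camk2a libraries, was at -0.73 ± 0.19. Markers of astrocytes, microglia and vascular cells were higher in the membrane fraction of Camk2a libraries in 8 of 8 genes each (medians 4.83, 4.24 and 4.70), oligodendrocyte markers in 7 of 8 and inhibitory markers in 7 of 9, and 1 of 8 excitatory markers was higher and 4 lower. The part of these cells in the values of Vamp5, Vamp8 and the other genes was not tested.

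Syntaxins, the target-membrane SNAREs, were mostly lower in the membrane fraction as well. Stx1a had 89.5, 114 and 143 CPM in membrane and 211, 262 and 341 CPM in cytosolic Camk2a libraries. These ranges were apart, with a log2 difference of -1.09 ± 0.04 in Camk2a, -0.81 in pS6 and -1.21 in Input libraries.

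Syntaxins of internal membranes went the same way: Stx7 of endosomes differed by -1.39 in Camk2a libraries, Stx5a of the Golgi by -1.17, Stx12 of recycling endosomes by -1.03 and Stx6 of the trans-Golgi network by -0.996. Stx17, which acts on autophagosomes and has its stretch 55 residues from the C terminus, differed by -0.54, nearer to 0. Stx4a (-0.09, adjusted p = 0.096, edgeR), a plasma membrane syntaxin of many tissues, was near 0 in pS6 (-0.01) and Input libraries (0.01) too. Stx2 was on the membrane side in all 3 (0.52, 0.60 and 0.50) without reaching a fold of 2. At an average of at least 3 on the log2 CPM scale, the tail-anchored genes lowest in pS6 libraries were Vamp1, Stx5a (-1.38) and Vamp7 (-1.36) and the highest Vamp3 (0.36), Stx2 and Vamp8 (1.04). In Input libraries they were Vamp1, Vamp7 (-1.32) and Vamp2 at the low end and Stx4a (0.01), Stx2 and Vamp8 (0.72) at the high end.

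Proteins held at the membrane by lipids or by partners were spread to both sides. Snap25, the palmitoylated SNARE of the presynaptic membrane, had 1868, 2246 and 2608 CPM in membrane and 5354, 6156 and 6780 CPM in cytosolic Camk2a libraries. Every cytosolic library was above every membrane one, with a difference of -1.34 ± 0.03 in Camk2a, -1.57 in pS6 and -1.40 in Input libraries. Snap29 differed by -1.19 and Snap47 by -0.30 in Camk2a libraries, and exons of both overlap a gene on the opposite strand (Pi4ka and Jmjd4). Whether counting used strand is not given in the sources used here. The tomosyns Stxbp5 and Stxbp5l, which compete for syntaxin, and amisyn (Stxbp6) were called lower in Camk2a libraries, at -1.20, -1.51 and -1.40. On the membrane side, short of a fold of 2, were the syntaxin-binding Stxbp3 (0.68, 0.43 and 0.26 in Camk2a, pS6 and Input libraries) and Stxbp2 (0.26, 0.46 and 0.40) and the palmitoylated Snap23 (0.28, 0.02 and 0.38, the pS6 value with adjusted p = 0.814, edgeR).

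The complexins, small soluble clamps on the SNARE bundle, differed among themselves. Cplx1 had 378, 425 and 520 CPM in membrane and 768, 876 and 1072 CPM in cytosolic Camk2a libraries, and differed by -0.94, -1.21 and -1.26 in Camk2a, pS6 and Input libraries. Cplx2 had 696, 900 and 1213 CPM in membrane and 693, 882 and 1007 CPM in cytosolic Camk2a libraries, with overlapping ranges. Its difference was 0.15 ± 0.04 in Camk2a, 0.24 in pS6 and -0.36 ± 0.07 in Input libraries. With scaling by total counts the Camk2a value of Cplx2 was -0.11.

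Of 54 genes tested in all 3 populations, 47 kept the same sign of difference. Those called higher in all 3 were Sv2a, Sv2c, Syt1, Syt2, Syt3, Syt4, Syt5, Syt7, Syt10, Syt11, Syt12, Syt13 and Syt15, and those called lower in all 3 were Snap25, Stx7, Stxbp6, Syt17, Vamp1, Vamp2 and Vamp7. The populations come from the same homogenates, so they are not independent of each other. With RLE scaling or DESeq2, Vamp2 and Syt17 were no longer among those lower in all 3 (Vamp2 was -0.97 and Syt17 -0.975 in Camk2a libraries), and with no filter on low counts Syt17 was not. Scaling by total counts shifted the median of all genes by -0.26, -0.23 and -0.26 in Camk2a, pS6 and Input libraries, so that 8 of the 13 were higher in all 3 and 15 genes lower in all 3. The calls lost were those of Syt13 in each population (0.93, 0.91 and 0.77), Sv2a in pS6 and Input libraries (0.87 and 0.81), Syt12 in pS6 (0.94) and Syt2 and Syt10 in Input libraries (0.95 and 0.89). Relative to the median of all genes the classes kept their sides.

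**Figure D2:**
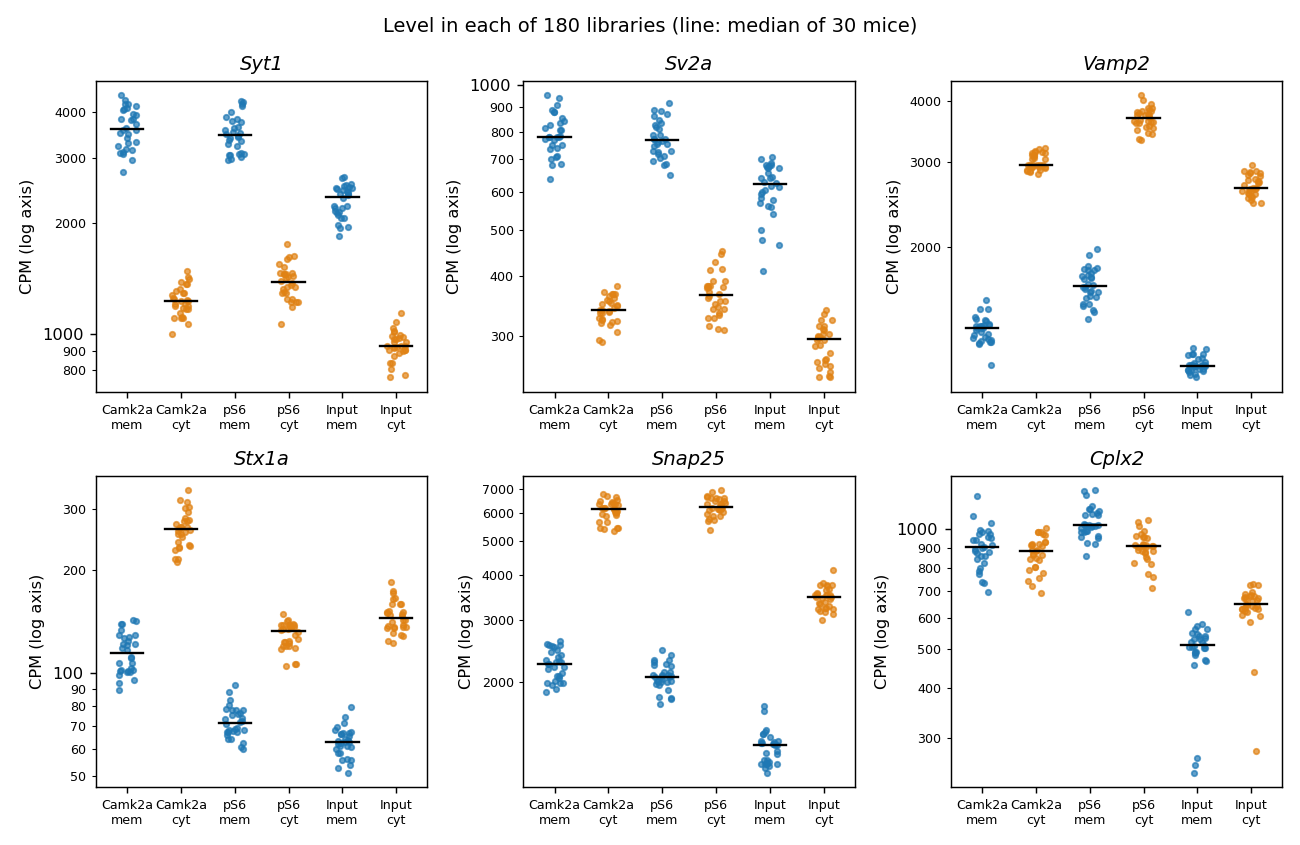
Level (CPM, log axis) of Syt1, Sv2a, Vamp2, Stx1a, Snap25 and Cplx2 in each of the 180 libraries by library type, with a line at the median of 30 libraries. In Camk2a libraries Syt1 and Sv2a lie higher in the membrane fraction (medians 3585 and 780 CPM) than in the cytosolic fraction (1234 and 340 CPM), Vamp2, Stx1a and Snap25 lower, and Cplx2 overlaps.

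Levels were also divided by kilobases of exon, with all annotated exons of a gene merged, which need not be the length of the transcripts present. On this scale the order of the fusion genes differed between fractions. Vamp7, with no unique position, had no such value. In Camk2a membrane libraries Syt1 was highest at 434 ± 54 CPM per kb (mean ± SD, n = 30), followed by Syt11 (356 ± 34), Vamp2 (354 ± 21), Snap25 (330 ± 32) and Syt5 (298). Syt11, Vamp2 and Snap25 lay within an SD or so of each other. In Camk2a cytosolic libraries Snap25 led at 897 ± 60 CPM per kb, followed by Vamp2 (788 ± 29), Cplx1 (401 ± 33) and Snap47 (308), and Syt1 was at 149 ± 14. Input membrane libraries had Vamp2 (300), Syt1 (275), Syt11 (260 CPM per kb) and Cplx1 (227) at the top, and Input cytosolic libraries Vamp2 (704), Cplx1 (545) and Snap25 (510 CPM per kb). In pS6 membrane libraries Vamp2 (439 CPM per kb) and Syt1 (420) came first, ahead of Cplx1 (347) and Snap25 (305).

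Where the hydrophobic stretch lies can be set against the fraction value gene by gene. Among genes whose stretch had a mean hydropathy of at least 1.6, those with 0 to 55 residues after it had negative differences in Camk2a libraries, apart from Vamp3, Vamp5, Vamp8, Stx2 and the multi-pass Sv2b, and those with a stretch farther from the C terminus than that of Stx17 had positive differences, apart from Stxbp5l and Snap91. Neither of these has a known membrane span. Syt16, on the positive side at 0.53, was also classed as without a span. Its stretch at residues 12 to 30 nevertheless had a mean hydropathy of 3.13. The bound of 55 residues is the value of Stx17, whereas the rule given earlier for a tail anchor was at most 40. With a bound of 40, Stx17 (-0.54) would be a further exception among the stretches farther from the C terminus. The separation by position thus rests in part on a bound equal to the value of a member.

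**Figure D3:**
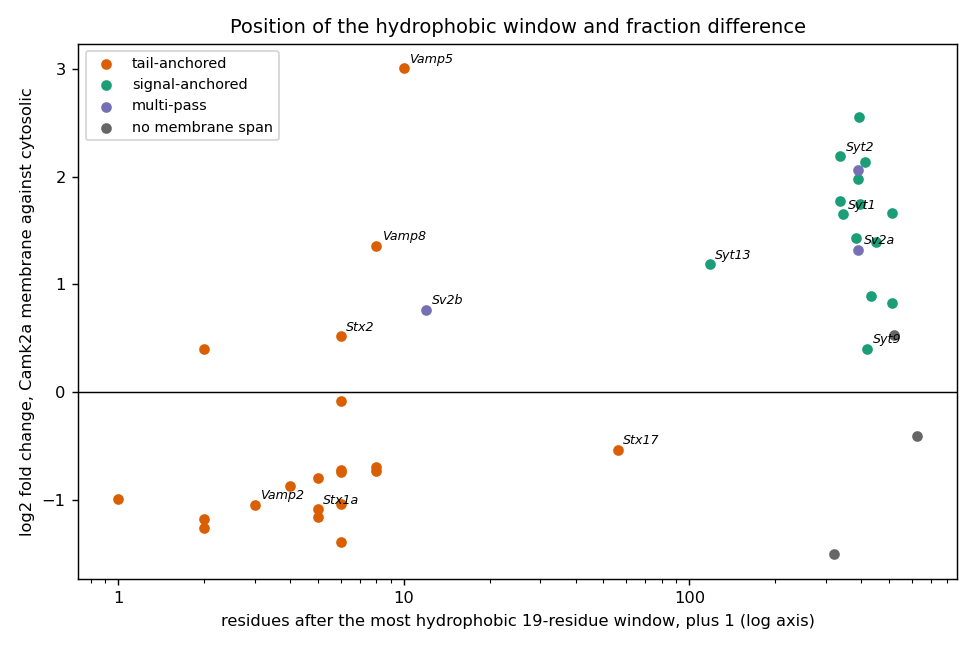
Number of residues after the most hydrophobic stretch plus 1 (x axis, log scale) against the log2 difference between membrane and cytosolic Camk2a libraries (y axis) for genes with a stretch above the hydropathy threshold of 1.6. Tail-anchored genes (median of 5 residues after the stretch) lie mostly below 0 and signal-anchored genes (median 392) above 0.

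Lists of related genes, drawn up by topology and function, were read beside the 59. Of 9 other tail-anchored SNAREs, 4 were lower and 0 higher in Camk2a libraries (median -0.92), between Gosr1 of the Golgi (-1.297 ± 0.039) and Vti1b of endosomes (-0.51 ± 0.03). Of 16 tail-anchored proteins that are no SNAREs, 6 were lower and 0 higher (median -0.92), between Rhot1 of mitochondria (-1.66) and Bcl2 (0.80, not called). Of 16 multi-pass vesicle proteins all 16 were higher (median 1.55), between the proton pump subunit Atp6v0a1 (1.16) and Syngr2 (3.47). The disassembly factors that take used SNARE bundles apart had 2 of 4 lower, Napb (-1.66) lowest. Soluble priming and active zone proteins had 4 of 25 higher and 1 lower, from Cadps2 (-1.38) to Pclo (2.68). Pclo encodes piccolo, a scaffold with no known membrane span. The machinery that inserts tail anchors had 1 of 7 higher (Wrb, 1.495) and 1 lower (Ubl4a, -1.02).

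Each mouse was then given the median log2 membrane to cytosolic ratio of its tail-anchored genes minus that of its signal-anchored genes, which is free of library scaling. In Camk2a libraries this difference was -2.95, -2.53 and -2.03 (lowest, median and highest of 30 mice), in pS6 libraries -2.58, -2.21 and -1.71, and in Input libraries -2.52, -2.14 and -1.54. No mouse of any group reached 0 in any population. The class medians behind it in Camk2a libraries were -1.14, -0.98 and -0.84 for tail-anchored and 1.06, 1.55 and 1.97 for signal-anchored genes.

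By group the Camk2a difference averaged -2.63 ± 0.27 (SD, n = 7) in CFC SD, -2.59 ± 0.20 (n = 8) in CFC Sleep, -2.39 ± 0.35 (n = 7) in NoCFC SD and -2.43 ± 0.32 (n = 8) in NoCFC Sleep mice. In pS6 libraries the means were -2.18, -2.24, -2.12 and -2.11 in the same order of groups, and in Input libraries -2.12, -2.17, -2.06 and -2.05. All 4 groups overlapped in each population, and the SDs (0.20 to 0.35 in Camk2a) were as large as the distances between means. Within mice 23 to 30, where both training states occur, it averaged -2.64 ± 0.14 in 4 CFC and -2.25 ± 0.20 in 4 NoCFC mice in Camk2a libraries, -2.36 and -1.92 in pS6 libraries and -2.06 and -1.85 in Input libraries. Of the 15 mice with the weaker separation (above the median) in Camk2a libraries, 13 (86.7%) were also above the median in Input and 12 (80.0%) in pS6 libraries. The 3 populations of a mouse share its homogenate, and this measure was given no test. Within groups it went with mouse number, a feature picked out after the values were seen. The 2 lowest-numbered mice of each group in mice 1 to 11 and 12 to 22 had Camk2a values between -2.95 and -2.77, and the 2 highest-numbered between -2.50 and -2.05. In Input libraries these ranges were -2.52 to -2.24 and -2.23 to -1.54, and in pS6 libraries -2.51 to -2.16 and -2.27 to -1.71, which overlapped. In mice 23 to 30 the lower-numbered of a group's 2 mice had the stronger separation in 4 of 4 groups in Camk2a and Input and 3 of 4 in pS6 libraries. What the numbers order is not given in the labels, and the SDs of the groups hold this spread.

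**Figure D4:**
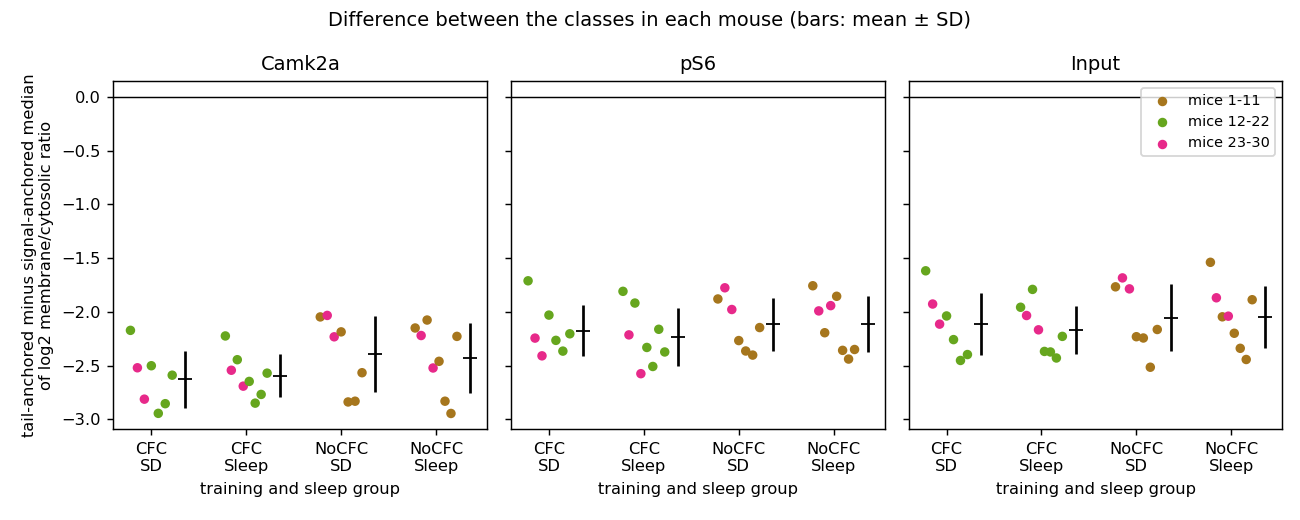
Median log2 membrane to cytosolic ratio of tail-anchored genes minus that of signal-anchored genes (y axis) for each mouse, by group and population, coloured by run of mouse numbers, with mean and SD. All 90 points lie below 0, and the groups overlap.

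Levels themselves mostly differed between the 4 groups by amounts near the spread within them. For genes with a mean of at least 3 on the log2 CPM scale, the largest minus the smallest group mean had a median of 0.10 in Camk2a cytosolic, 0.11 in pS6 cytosolic, 0.15 in Camk2a membrane and 0.21 in pS6 membrane libraries (log2). In Input libraries it was 0.10 (cytosolic) and 0.14 (membrane). The median SD within groups was 0.13 to 0.16. This range of group means was above the gene's own SD for 34 of 49 genes in pS6 membrane, 25 of 51 in Input membrane and 18 of 45 in Camk2a membrane libraries, and for 11 of 44, 15 of 43 and 13 of 49 in Camk2a, pS6 and Input cytosolic libraries. The widest ranges were 0.84 for Cplx3 in Camk2a cytosolic (SD 0.70) and 0.66 for Syt9 in pS6 membrane libraries (SD 0.36). As examples, Vamp2 averaged 1327 ± 128, 1369 ± 53, 1361 ± 68 and 1343 ± 76 CPM in CFC SD, CFC Sleep, NoCFC SD and NoCFC Sleep Camk2a membrane libraries. Syt1 averaged 3808 ± 404, 3770 ± 315, 3171 ± 155 and 3259 ± 231 CPM (SD) in the pS6 membrane libraries of the same groups, with both CFC means above both NoCFC means.

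The captures were next set against Input. Vamp3, Vamp8, Snap23 and Stx2 were among the genes lower in Camk2a capture, and Stx1a, Vamp1, Vamp2 and Snap25 were not called. Other VAMP and syntaxin relatives, such as Vamp7 and Stx12, lay on the higher side in the cytosolic fraction without a call. The share of fusion genes called lower was near that of all genes in each fraction. Of 54 genes tested in cytosolic libraries, 7 were lower and 0 higher in Camk2a capture than in Input (16.5% and 0.371% of all genes). Behind the 0 of edgeR, 47 of the 54 had an unadjusted p under 0.05, adjusted p alone gave 32 higher and 15 lower, and DESeq2 with the fold of 2 called 0 higher. Vamp3 had 7.10, 9.31 and 11.2 CPM in Camk2a and 29.9, 35.3 and 39.9 CPM in Input cytosolic libraries. The ranges were far apart, with a difference of -2.12 ± 0.04. Vamp8 (-2.59), Snap23 (-2.01), the ubiquitous relative of Snap25, Stx2 (-1.52), Stxbp3 (-1.74), Syt6 (-2.91) and Vamp5 were the others. Vamp5 passed the filter through Input alone: it had 0, 0.0867 and 0.268 CPM in Camk2a and 1.29, 1.802 and 2.72 CPM in Input cytosolic libraries, and was at 0 counts in 5 of the 30 Camk2a libraries, so the size of its difference is uncertain. In the membrane fraction 1 of 54 was higher and 8 lower (1.9% and 16.8% of all genes): Sv2c was higher by 1.11 ± 0.07 (medians 43.1 CPM in Camk2a and 19.8 CPM in Input membrane libraries), and Vamp3, Vamp5, Vamp8, Snap23, Stx2, Stxbp3, Syt6 and Syt15 were lower.

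The neuronal members differed by less than a fold of 2 between Camk2a capture and Input. In the cytosolic fraction the log2 differences were 0.67 for Stx1a, 0.64 for Snap25, 0.27 for Cplx2, 0.24 for Sv2b, 0.23 for Syt1, 0.05 for Sv2a, -0.01 for Vamp2 and -0.62 for Cplx1. In the membrane fraction they were 0.77 for Stx1a, 0.77 for Cplx2, 0.68 for Snap25, 0.56 for Syt1, 0.33 for Sv2b, 0.28 for Sv2a, 0.14 for Vamp2 and -0.32 for Cplx1. Signs of the smallest cytosolic values turned with the processing: Sv2a was -0.08 with scaling by total counts, and Vamp2 was 0.004 with no filter on low counts. Ends of the classes at an average level of at least 3 on the log2 CPM scale were, in the cytosolic fraction, Vamp3, Stx2 and Stx17 (-0.67) against Vamp7 (0.47), Stx12 (0.51) and Stx1a among tail-anchored genes, and Syt9 (-0.90), Syt2 (-0.89) and Syt14 (-0.38) against Syt4 (0.47), Syt12 (0.47) and Syt5 (0.76) among signal-anchored genes. In the membrane fraction they were Vamp8, Vamp3 and Stx2 against Stx6 (0.37), Stx12 (0.39) and Stx1a, and Syt9 (-0.63), Syt2 (0.06) and Syt13 (0.18) against Syt7 (0.74), Syt4 (0.90) and Syt5 (0.98).

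In pS6 capture against Input, cytosolic libraries had 5 of 54 genes lower and 0 higher (8.84% and 11.4% of all genes), the lower being Vamp3 (-1.32), Syt6 (-1.26), Cplx3 (-1.11), Stxbp3 (-1.04) and Stxbp5l (-1.004). In the membrane fraction 0 of 55 were higher and 1 lower, Cplx3 at -1.15 ± 0.11 (7.23% and 3.62% of all genes). For these counts of 0 by edgeR, 50 and 44 genes had an unadjusted p under 0.05, adjusted p alone gave 25 (cytosolic) and 21 (membrane) higher, and DESeq2 with the fold of 2 called 1 higher in each. The cytosolic gene was Vamp1 (0.98 ± 0.03 in edgeR), and the membrane gene was Cplx2, with 857, 1024 and 1252 CPM in pS6 and 246, 513 and 622 CPM in Input libraries and an edgeR difference of 0.99. Other differences from Input were, cytosolic then membrane, 0.53 and 0.52 for Syt1, -0.23 and 0.11 for Stx1a, 0.42 and 0.46 for Vamp2, 0.81 and 0.58 for Snap25 and 0.53 and 0.52 for Cplx1.

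Setting the captures side by side, 7 of 54 genes were higher and 7 lower in pS6 than in Camk2a capture in the cytosolic fraction (22.3% and 8.36% of all genes). Vamp1 had 289, 338 and 407 CPM in pS6 and 118, 138 and 184 CPM in Camk2a cytosolic libraries. The ranges did not overlap, and the difference was 1.27 ± 0.04. Cplx1 had 1561, 1770 and 2009 CPM in pS6 and 768, 876 and 1072 CPM in Camk2a cytosolic libraries, a difference of 1.04 ± 0.03. Syt2 was higher by 1.29 ± 0.09, and the others higher were Vamp5, Vamp8, Syt6 and Snap23. Stx1a had 105, 133 and 148 CPM in pS6 and 211, 262 and 341 CPM in Camk2a cytosolic libraries, a difference of -1.01 ± 0.04, and Stx12, Syt10, Sv2c, Snap29, Stxbp5l and Stxbp6 were also lower (-1.02 to -1.47). With RLE scaling, DESeq2 or scaling by total counts 4 were lower, as Stx1a (-0.95, -0.95 and -0.84), Stx12 (-0.99, -0.99 and -0.88) and Snap29 (-0.96, -0.96 and -0.85) no longer reached a fold of 2. Beside this, markers of inhibitory neurons were higher in pS6 capture in 9 of 9 genes (median 3.71), and their part in the values of Vamp1, Syt2 and Cplx1 was not tested. In the membrane fraction 4 of 55 were higher (Vamp5, Vamp8, Vamp9 and Snap23) and 2 lower (Syt10 at -1.07 and Sv2c at -1.24), against 16.5% and 1.41% of all genes.

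Whether the membrane to cytosolic difference itself changed with capture was tested as an interaction. For Camk2a capture against Input 2 of 55 genes passed, Vamp5 (2.20 ± 0.21) and Syt6 (1.42 ± 0.14), against 8.21% of all genes (adjusted p under 0.05 and a fold of 2, edgeR). Both were among the lowest genes and were lower in Camk2a capture than in Input, and the value of Vamp5 rests on its Camk2a cytosolic level near 0. Without the fold threshold 13 genes had a positive interaction, a log2 membrane to cytosolic value higher in Camk2a capture than in Input, and 19 a negative one. The median of all genes was 0.004, but 0.051 with RLE scaling and 0.143 with scaling by total counts, so small values depend on the scaling. This fit scaled both populations together, so its values need not equal the gap between the separate fraction values. Syt2 was at 0.83 ± 0.13 (adjusted p = 3.08e-08), Syt7 at 0.42 ± 0.09 (adjusted p = 1.86e-05), Syt1 at 0.22 ± 0.05 (adjusted p = 0.000180) and Vamp2 at 0.04 ± 0.03 (adjusted p = 0.216). Syt7 was at least 0.5 (log2) below the median of its library type in 5 Input libraries picked out by low Cplx2. Its interaction without them is not given here. For pS6 capture against Input 0 of 56 passed in edgeR, with 31 at an unadjusted p under 0.05, against 4.14% of all genes.

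Sleep deprivation changed few fusion genes, with the largest called difference in Cplx3. In cytosolic pS6 libraries Cplx3 and Vamp1 rose and Syt17 and Cplx2 fell in SD against Sleep mice, and in cytosolic Input libraries Snap29 rose and Stx5a fell. The pS6 cytosolic count was 4 of 54 genes (adjusted p under 0.05, edgeR, with no fold threshold), against 7.88% of all genes, and the Input cytosolic count was 2 of 53, against 3.17% of all genes, so both shares were near the background. Cplx3, a complexin of ribbon synapses and some cortical neurons, had 4.82, 6.79 and 8.97 CPM in SD (lowest, median and highest of 14 mice) and 1.92, 3.49 and 7.75 CPM in Sleep mice (16 mice). All 14 SD mice were above the Sleep median although the ranges overlapped, with a difference of 0.73 ± 0.18 (adjusted p = 0.00688). Vamp1 had 324, 347 and 407 CPM in SD and 289, 328 and 357 CPM in Sleep mice, with 12 of 14 SD mice above the Sleep median and a difference of 0.15 ± 0.04 (adjusted p = 0.00973).

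Syt17, a soluble relative of the synaptotagmins, had 149, 170 and 183 CPM in SD and 161, 193 and 211 CPM in Sleep pS6 cytosolic libraries. None of the 14 SD mice reached the Sleep median, and it fell by 0.16 (SE 0.04, adjusted p = 0.00312). Cplx2 had 713, 865 and 988 CPM in SD and 874, 915 and 1054 CPM in Sleep mice, a difference of -0.13 ± 0.04 (adjusted p = 0.0368), which was -0.11 with adjusted p = 0.0834 without mouse 22. In Input cytosolic libraries Snap29 had 22.6, 26.6 and 30.7 CPM in SD and 17.1, 22.95 and 29.1 CPM in Sleep mice (0.22 ± 0.06, adjusted p = 0.0185), and Stx5a had 41.4, 47.4 and 54.3 CPM in SD and 49.0, 51.0 and 54.9 CPM in Sleep mice (-0.11 ± 0.03, adjusted p = 0.0279). Ranges overlapped for both. With no filter on low counts the adjusted p was 0.212 for Stx5a and 0.0630 for Cplx2. Within the 3 runs of mouse numbers the mean difference kept its sign for each of the 6 genes, between 0.52 and 1.41 for Cplx3 and between 0.14 and 0.15 for Vamp1.

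Beside the pS6 cytosolic changes, inhibitory markers were higher in SD than in Sleep mice in 9 of 9 genes (median 0.34, range 0.22 to 0.54). Their summed level was 862, 943 and 1157 CPM in SD and 656, 769 and 881 CPM in Sleep mice, and 0 of the genes were at 0 throughout. Excitatory markers had 2 of 8 lower and astrocyte markers 1 of 8 higher. Their part in the changes of Vamp1, Cplx3, Cplx2 and Syt17 was not tested.

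In the other library types no fusion gene passed for SD against Sleep. Camk2a cytosolic libraries gave 0 of 53 in edgeR, with 6 at an unadjusted p under 0.05 and 0 in DESeq2, against 6.28% of all genes. Camk2a membrane libraries gave 0 of 54, with 2 unadjusted and 0 in DESeq2 (2.97% of all genes), and Input membrane libraries 0 of 54, with 2 unadjusted and 0 in DESeq2 (1.37%). In pS6 membrane libraries the count was 0 of 55 in edgeR, with 5 unadjusted and 1 in DESeq2 (1.73% of all genes). The DESeq2 gene was Syt4, at 0.15 ± 0.04 and adjusted p = 0.0611 in edgeR. The SD differences of all tested fusion genes had medians between -0.03 and 0.02 in the 6 library types. Tail- and signal-anchored medians were -0.02 and -0.01 in Camk2a cytosolic libraries and -0.003 and -0.008 in Camk2a membrane libraries.

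For training, no fusion gene was called in cytosolic libraries, and small differences were called in membrane libraries. Whether the effect of training differed between the fractions was not tested. Among CFC against NoCFC mice (15 each), signal-anchored Syt1, Syt9, Syt13 and Syt14 and the multi-pass Sv2b were higher in 1 or more membrane library types. Stxbp6 and Syt16, classed as without a span, were higher in pS6 membrane libraries. Stxbp2, Snap25, Snap47, Cplx2 and Stx1a were among the genes lower in 1 or more membrane library types. Camk2a membrane libraries had 4 genes higher and 5 lower of 54, with 17% of all genes called in either direction. In pS6 membrane libraries 4 were higher and 6 lower of 55 (16.8% of all genes), and in Input membrane libraries 2 were higher and 2 lower of 54 (6.53% of all genes). The share of fusion genes called was near that of all genes each time. Since mice 1 to 11 are all NoCFC and 12 to 22 all CFC, training and run of mouse numbers cannot be told apart there. With run as a term, or in mice 23 to 30 alone (4 CFC and 4 NoCFC), 0 fusion genes passed in each of these 3 types by edgeR, with 2, 9 and 6 (run) and 4, 7 and 5 (mice 23 to 30) at an unadjusted p under 0.05 in Camk2a, pS6 and Input libraries. These fits rest on 8 mice, so a lost call alone does not show a smaller difference. In mice 23 to 30 alone some estimates stayed near the reported size, such as Sv2b in pS6 membrane libraries (0.24 ± 0.08). Others were near 0, such as Syt9 in Camk2a (0.02 ± 0.19) and Stxbp2 in Input membrane libraries (-0.01 ± 0.13).

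In pS6 membrane libraries Syt1 had 3054, 3776 and 4280 CPM in CFC and 2960, 3220 and 3559 CPM in NoCFC mice. Of the 15 CFC mice 14 were above the NoCFC median, with overlapping ranges, and the difference was 0.16 ± 0.04 (adjusted p = 0.00266). In mice 23 to 30 alone it was 0.22 ± 0.07 with adjusted p = 0.366. Sv2b had 477, 610 and 750 CPM in CFC and 457, 511 and 637 CPM in NoCFC pS6 membrane libraries, a difference of 0.21 ± 0.05 (adjusted p = 0.00184), and 0.24 ± 0.08 in mice 23 to 30 (adjusted p = 0.445). Sv2b was the gene called in all 3 populations on the higher side, at 0.19 ± 0.05 in Camk2a and 0.17 ± 0.05 in Input membrane libraries.

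Syt13 had 495, 548 and 598 CPM in CFC and 398, 480 and 533 CPM in NoCFC Input membrane libraries. All 15 CFC mice were above the NoCFC median, and the difference was 0.15 ± 0.03 (adjusted p = 0.00753), and 0.15 ± 0.07 in mice 23 to 30 (adjusted p = 0.709). In Camk2a membrane libraries Syt13 differed by 0.14 ± 0.05, Syt14 by 0.24 ± 0.07 and Syt9 by 0.26 ± 0.09. In mice 23 to 30 alone these were 0.12 ± 0.06, 0.21 ± 0.12 and 0.02 ± 0.19. The Syt14 values were 18.2, 22.2 and 26.6 CPM in CFC and 14.3, 17.9 and 27.2 CPM in NoCFC mice, with all 15 CFC mice above the NoCFC median. Stxbp6 (0.26) and Syt16 (0.16) were higher in pS6 membrane libraries, and were at 0.025 and 0.155 there in mice 23 to 30 alone.

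On the lower side, Stxbp2 (Munc18-2), the syntaxin-binding protein that serves secretion in blood and epithelial cells, was lower in all 3 membrane types. It differed by -0.36 ± 0.09 in Camk2a, -0.43 ± 0.12 in pS6 and -0.32 ± 0.09 in Input libraries. In mice 23 to 30 alone these were -0.14, -0.18 and -0.01. Stxbp2 had 7.62, 10.5 and 13.7 CPM in CFC and 9.46, 13.1 and 17.2 CPM in NoCFC Camk2a membrane libraries, which overlapped.

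Among the SNAREs and complexins, Snap25 had 1868, 2180 and 2556 CPM in CFC and 2044, 2289 and 2608 CPM in NoCFC Camk2a membrane libraries (-0.14 ± 0.05, adjusted p = 0.0467, edgeR). Cplx2 and Snap47 differed there by -0.18 ± 0.05 and -0.13 ± 0.04. In mice 23 to 30 alone Snap25, Cplx2 and Snap47 were at -0.16, -0.12 and -0.06 in these libraries. Stx1a had 59.95, 68.6 and 92.5 CPM in CFC and 64.2, 75.8 and 88.2 CPM in NoCFC pS6 membrane libraries (-0.18 ± 0.05, adjusted p = 0.0174). Stxbp5 (-0.22), Stxbp5l (-0.31) and Snap47 (-0.15) were also lower in pS6 membrane libraries. In mice 23 to 30 alone Stxbp5 was at -0.24 and Stxbp5l at -0.09, and Snap47 turned to 0.04 there and with run as a term. In Input membrane libraries Snap91, the clathrin adaptor AP180 that shares only its symbol with the SNAREs, differed by -0.13 ± 0.04 (adjusted p = 0.0469), a call lost without mouse 22 (adjusted p = 0.0797). Snap25 in Camk2a membrane libraries and Snap47, Stxbp6 and Syt16 in pS6 membrane libraries also had adjusted p between 0.0503 and 0.0694 without mouse 22.

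**Figure D5:**
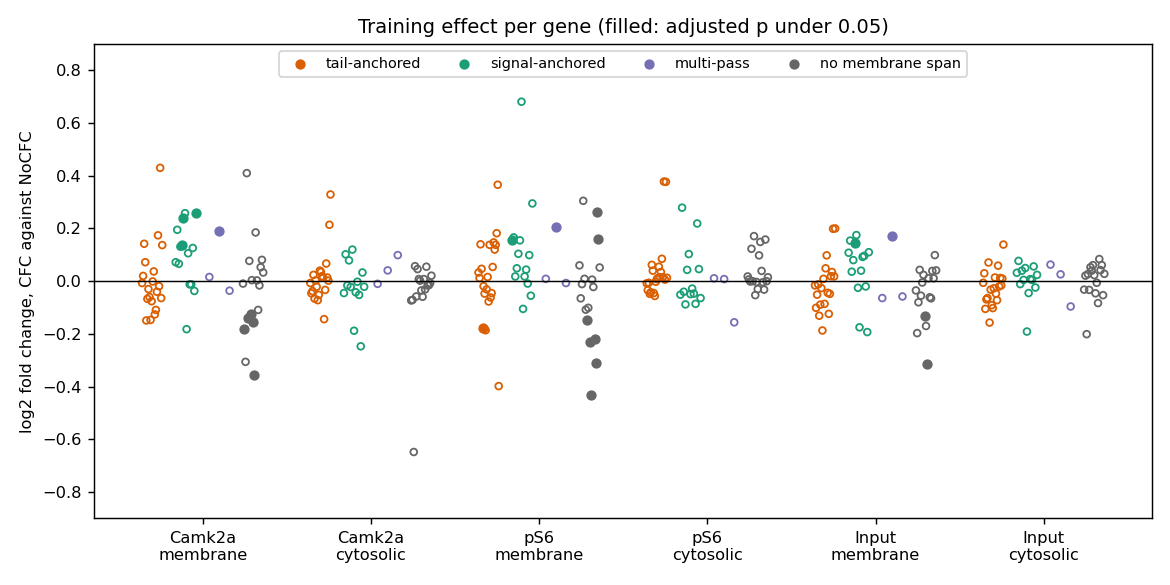
Log2 difference of CFC against NoCFC mice (y axis) for each fusion gene in the 6 library types (x axis), with filled points for adjusted p under 0.05. Filled points occur in the membrane types, with 9 in Camk2a, 10 in pS6 and 4 in Input libraries.

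By class, the CFC difference in Camk2a membrane libraries had a median of -0.02 for tail-anchored and 0.12 for signal-anchored genes, against -0.01 for all genes. The medians were 0.02 and 0.07 in pS6 membrane libraries and -0.02 and 0.09 in Input membrane libraries. Multi-pass vesicle proteins had 5 of 16 higher in Camk2a membrane libraries, 7 higher and 1 lower in pS6 and 1 higher in Input membrane libraries. Priming and active zone genes had 8 of 25 lower in Camk2a, 12 in pS6 and 2 in Input membrane libraries and 0 higher in each, among them Unc13a, the main priming factor (-0.57 ± 0.07 in pS6). Of all genes 17%, 16.8% and 6.53% were called in either direction in these types. With run as a term 0 genes of either list passed in edgeR, with list medians of 0.17, 0.18 and 0.14 (multi-pass) and -0.10, -0.02 and -0.12 (priming) in Camk2a, pS6 and Input membrane libraries, and Unc13a was at -0.17 ± 0.11 in pS6 membrane libraries. Astrocyte markers were higher in CFC mice in 6 of 8 genes in Camk2a membrane libraries (median 0.40), with a summed level of 1344, 2258 and 3032 CPM in CFC and 1255, 1704 and 1984 CPM in NoCFC mice, and microglia markers in 5 of 8. The part of glial RNA and of the per-mouse separation of fractions in the CFC differences was not tested.

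Cytosolic libraries gave 0 calls for CFC against NoCFC. Camk2a cytosolic libraries had 0 of 53 in edgeR (2 at an unadjusted p under 0.05, 0 in DESeq2, 0.148% of all genes called). In pS6 cytosolic libraries it was 0 of 54 (3 unadjusted, 0 in DESeq2, 0.133% of all genes), and in Input cytosolic libraries 0 of 53 (4 unadjusted, 0 in DESeq2, 0.219% of all genes). An interaction of training with sleep was found for 0 genes in any of the 6 library types by edgeR or DESeq2, with 0 to 3 fusion genes at an unadjusted p under 0.05, and 0% of all genes passed as well. In Camk2a libraries these interactions ran between -0.35 and 0.45 (log2) in cytosolic and between -0.43 and 0.69 in membrane libraries. The interaction of fraction with SD likewise gave 0 of 55 in Camk2a, 0 of 55 in pS6 and 0 of 54 in Input libraries by edgeR, with 3, 2 and 1 at an unadjusted p under 0.05, and 0% of all genes passed. For Syt1 it was 0.03 ± 0.08 and for Vamp2 0.00 ± 0.04 in Camk2a libraries. An interaction that misses the threshold at these group sizes does not show that the effects were equal.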

How the data were processed

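The deposited table holds whole-number counts per gene and library, made by the authors with no normalization; per the submitters' processing notes, STAR 2.6.1a, featureCounts (no version), MultiQC 1.6a0 and GRCm38.p6 were used, and libraries were SMART-seq v4 per the labels' protocols. Strand and read-assignment settings are not given in the sources used here. Depth limits the precision of low genes, and since no molecular identifiers were counted, floors cover counting error only.

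Members and lists were chosen with earlier results of these data known. Named were all members at need, always Syt1, Stx1a, Vamp2, Snap25, Cplx1, Cplx2, Sv2a and Sv2b, for fraction and capture the 3 highest and 3 lowest of each anchor class at a mean log2 CPM of at least 3, and for SD, CFC and interactions every called member; some of these are not reported here, though they remain in the counts.

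Counts were fitted in R 4.3.3 with edgeR 4.0.16 (limma 3.58.1, statmod 1.5.0): filterByExpr, TMM scaling, a mean per group and robust quasi-likelihood F-tests, averaged over the 4 groups or over the other factor, with Benjamini-Hochberg adjustment over all genes tested. SD, CFC and their interactions were fitted within a library type. For fraction and capture the library types compared entered 1 fit, and a call also needed a fold of 2. These main fits had no mouse term, so libraries of the same mouse were treated as independent. CPM levels and per-mouse ratios come from 1 joint TMM scaling of 18484 genes (prior count 2 where logged), which places per-mouse ratios lower than fitted differences. Alternatives were DESeq2 1.42.0, RLE or total-count scaling, no filter, no fold threshold, a replicate block, run as a term, mice 23 to 30 alone, and, chosen after seeing the data, leaving out mouse 22 or 5 Input libraries. Per the extract protocol in the labels, each homogenate was divided, so libraries with the same number were taken as 1 mouse: their deviations from group means correlated with a median of 0.107, over 0.1 in 243 of 450 pairs, against -0.004 for different numbers. No 2 libraries of a group were copies (lowest chi-square per degree of freedom 3.01). On simulated counts the SD test in Camk2a cytosolic libraries recovered 81.9% of 199 genes changed by 0.5 on the log2 scale. It made 7 false calls among 14715 genes. The fraction test recovered 100% of 200 genes changed by 2, a change above its fold threshold. Apart from Cplx3, called SD and CFC differences of fusion genes were smaller in size than 0.5, and recovery at their size was not simulated. Simulated libraries were drawn independently, with no shared mouse.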

Additional observations from a re-analysis of the deposited data

Results flagged for a closer look

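In 128 groups of 7 or 8 libraries, 1 library stood far from the rest in 5, and chance alone gives about 1 in 20 groups. Syt17 was lowest at 149 CPM in cytosolic pS6 libraries of CFC SD mouse 22, where the next value was 170 CPM. Snap47 was highest at 598 CPM in pS6 membrane libraries of CFC Sleep mouse 25 (next 453 CPM), and Stxbp6 at 57.8 CPM in those of NoCFC Sleep mouse 24 (next 39.2 CPM). Stxbp2 was highest in Input membrane libraries of CFC SD mouse 22 (14.8 CPM, next 10.3 CPM) and of NoCFC SD mouse 9 (16.8 CPM, next 12.6 CPM).

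The membrane to cytosolic difference was larger in Camk2a capture than in Input for Vamp5 (interaction 2.20 ± 0.21) and Syt6 (1.42 ± 0.14) by a test of the difference itself. The value of Vamp5 rests on a Camk2a cytosolic level near 0 (median 0.0867 CPM) and on its passing the filter through other libraries.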

How the results depend on the processing

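Of the counts and class medians recomputed under the alternatives, 312 values stayed within 1.5 times the reported count or within the spread, and 58 did not. For single genes 1451 values kept direction and side of the threshold, 73 came to pass it, 102 ceased to and 11 turned sign. The cause was not tested, except that dropping the fold threshold makes the rule weaker. With adjusted p alone, members higher and lower numbered 26 and 27 (fraction, Camk2a), 24 and 25 (pS6), 23 and 28 (Input), 32 and 15 (Camk2a against Input, cytosolic), 29 and 18 (membrane), 25 and 25 (pS6 against Input, cytosolic), 21 and 23 (membrane), 22 and 28 (pS6 against Camk2a, cytosolic) and 20 and 29 (membrane). Fraction by capture then gave 13 higher and 19 lower for Camk2a and 20 and 10 for pS6.

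The replicate block by mouse, the paired fit, called 1 gene higher in pS6 against Input membrane libraries and changed no other count by over 1.5 times. DESeq2 and RLE scaling each called 4 lower in pS6 against Camk2a cytosolic libraries and 1 higher in pS6 against Input in each fraction, and DESeq2 called 1 for SD in pS6 membrane libraries. Both gave 0.005 for Sv2a in pS6 against Camk2a membrane libraries. With run as a term and in mice 23 to 30 alone, CFC gave 0 members in Camk2a, pS6 and Input membrane libraries and Snap47 was 0.043 and 0.041 in pS6 membrane libraries, and with run SD gave 1 in pS6 membrane libraries. Without replicate 22 the SD count in pS6 membrane and the higher count of pS6 against Input in the cytosolic fraction were 1 each, and without 5 Input libraries pS6 against Input gave 1 higher in the membrane fraction.

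With no filter 11 were lower in Camk2a against Input cytosolic libraries, SD in Input cytosolic libraries gave 1, Vamp2 in Camk2a against Input cytosolic libraries was 0.004, and the Camk2a fraction median of genes without a span was -0.24. Scaling by total counts gave fraction medians in Camk2a, pS6 and Input libraries of -1.06, -0.94 and -1.11 (tail-anchored), 1.06, 0.87 and 0.81 (multi-pass) and -0.67, -0.69 and -0.75 (no span), and of 1.23 and 1.05 (signal-anchored, pS6 and Input). It gave 19 lower for fraction in Input libraries, 4 and 1 lower in pS6 against Camk2a cytosolic and membrane libraries and 1 higher in pS6 against Input membrane libraries. In pS6 against Camk2a membrane libraries it turned Snap25 to 0.03, Sv2a to 0.11, Sv2b to 0.061 and Syt1 to 0.09, and it gave -0.11 for Cplx2 (fraction, Camk2a) and -0.083 for Sv2a (Camk2a against Input, cytosolic). The class alternative from a protein table was not run. Depth limits Vamp5, Vamp8, Vamp9, Syt6, Syt15 and Snap23, whose medians are at most 3.69 CPM in Camk2a libraries.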

Other observations

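Cplx2 was low in 5 Input libraries, a feature picked out after its values were seen. In the membrane fraction it had 246 and 256 CPM in CFC SD mice 22 and 30 and 267 CPM in CFC Sleep mouse 16, where the median of the 30 libraries was 513 CPM and the next lowest 457 CPM. In the cytosolic fraction it had 278 CPM in NoCFC Sleep mouse 6 and 440 CPM in CFC Sleep mouse 14, against a median of 648 CPM. Among 9817 genes with a mean log2 CPM above 3, 183 were at least 0.5 (log2) below the median of their library type in all 5 of these libraries and 3 were above it by that much. Cplx2 is among the 183 through the choice of these libraries, which rested on its low values. Syt7 was the other vesicle fusion gene in the 183. No other set of libraries was counted in this way.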
